A study of Nitraria sibirica with 9 samples.

Results

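The 150 transcript clusters described here were lower in leaves of Nitraria sibirica at both salt levels tested than without added NaCl, and by a similar amount at 100 mM and at 400 mM. They were taken from a table of 31628 clusters with their expression in all 9 libraries, out of 126059 clusters in the library tables. Expression is in FPKM, which relates fragments to the length of a cluster and to the size of its library. A cluster was a candidate if all of the following held. Its mean over all libraries was under 500 FPKM. Its highest value in the 6 salt libraries was below its lowest value at 0 mM. The log2 ratio of its mean FPKM at 400 mM to its mean FPKM at 100 mM was under 0.5 in either direction. Of 2600 candidates, the 150 with the lowest ratio of the mean of the 6 salt libraries to the mean at 0 mM were kept, and they are numbered by that ranking. These values chose the clusters, so that the difference from 0 mM and the likeness of both salt levels are given as descriptions, without tests.

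Nitraria sibirica is a shrub of saline soils. Seedlings were raised in a greenhouse, and leaf RNA was sequenced after 3 days at 0 mM, 100 mM or 400 mM NaCl, with 3 libraries at each level. Salt was stepped up daily in equal additions, and plants meant for the higher level were started earlier. The plants at 400 mM were therefore in some salt for longer, and level and time in salt cannot be told apart. The replicates are numbered, but separate plants or pools are not stated, so the spread between libraries may be technical.

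Salt acts on leaves in more than one way. Solutes outside the root make water harder to take up, and sodium that reaches the leaf disturbs potassium-dependent enzymes. Many plants slow growth and lower part of their photosynthetic and cell wall transcripts under salt, while transcripts for ion transport, protective proteins and compatible solutes rise, and some shrubs of saline soils store salt in succulent leaves. This is background only, as the files do not pair the clusters with gene names, proteins or sequences. The clusters could not be assigned to such groups, no sequence is shown, and the leaf label could not be checked against marker genes. In RNA from whole leaves, fewer cells of a type and less RNA per cell cannot be told apart.

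Total counts ran from 16502728 to 23933039 per library, and the salt libraries were on average deeper. Over the whole table the median log2 ratio to 0 mM was -0.21 at 100 mM and -0.14 at 400 mM, so that a small part of the lower level of any cluster is shared by the table. Over all 31628 clusters, 10.1% had every salt library below every 0 mM library.

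Levels of the 150 clusters were low at salt and moderate without it. The median cluster had a mean of 6.95 FPKM at 0 mM, 1.62 FPKM at 100 mM and 1.73 FPKM at 400 mM. Over the table the same medians were 6.34, 5.63 and 5.88 FPKM. At 0 mM the 150 clusters thus stood close to the table, and at either salt level most of them were among the scarcer clusters. The range at 0 mM was wide, from 1.57 to 481 FPKM, with quartiles at 4.15 and 22.1 FPKM. Together the 150 clusters held 0.290% ± 0.0123 of all counts in the libraries without salt. Their share was 0.0692% ± 0.0166 at 100 mM and 0.0733% ± 0.0229 in the 400 mM libraries (SD over 3 libraries).

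The ratio of the salt mean to the 0 mM mean had a median of -1.94 on the log2 scale, which is 3.84-fold lower at salt. The middle of the list was narrow, with quartiles of -2.17 and -1.79. A few clusters stood far below the rest. Only 3 of the 150 had a log2 ratio under -3, and 58 had one under -2. By salt level, the median log2 ratio to 0 mM was -2.01 at 100 mM and -1.94 at 400 mM. All 150 were below -1 at both levels, as were 1564 clusters (4.95%) of the table. At 100 mM 76 clusters were below -2, and at 400 mM 58 were.

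**Figure D1:**
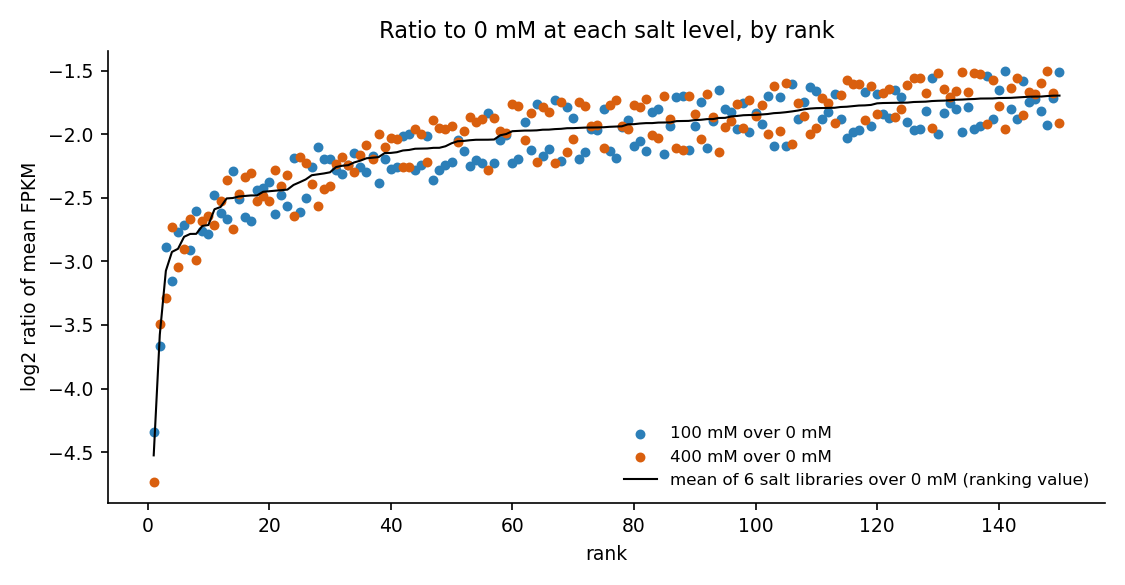
Log2 ratio of mean FPKM to 0 mM at 100 mM (blue) and at 400 mM (orange) against rank, with the ranking value, the mean of the 6 salt libraries over 0 mM, as a line. Every point lies below -1.50, and the line is under -3 for the first 3 ranks only.

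The cluster with the largest difference was Cluster-23439.15008, of 489 bases. It had 16.7, 36.4 and 9.35 FPKM in the 0 mM libraries 1 to 3. In the same order it had 1.28, 0.43 and 1.37 FPKM at 100 mM, and 1.61, 0.38 and 0.35 FPKM at 400 mM. The lowest 0 mM library lay 5.81 times above the highest salt library, the widest separation in the list, although the 0 mM libraries themselves differed among each other by several times. Its salt mean was 23.0-fold lower than its 0 mM mean, on 306 counts over all 9 libraries.

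Second was Cluster-23439.51096, of 1098 bases, with steadier control values. It had 12.0, 7.6 and 10.2 FPKM at 0 mM, 1.67, 0.36 and 0.32 FPKM at 100 mM, and 1.45, 0.65 and 0.54 FPKM at 400 mM. Its salt mean was 11.9-fold lower than at 0 mM. Within each salt level replicate 1 was the highest library, and it still lay under the lowest 0 mM library. Its mean was 9.93 ± 2.20 FPKM without salt, 0.783 ± 0.768 FPKM at 100 mM and 0.880 ± 0.497 FPKM at the higher level (SD over 3 libraries).

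The next 8 ranks were between 6.56-fold and 8.42-fold lower at salt, and in 4 of them replicate 1 was the highest library of both salt levels. Rank 4, of 1006 bases, had 20.0, 15.2 and 33.0 FPKM at 0 mM, 6.55, 0.54 and 0.58 FPKM at 100 mM, and 6.08, 2.12 and 2.10 FPKM at 400 mM. Rank 5, of 1349 bases, had 7.89, 5.53 and 11.9 FPKM at 0 mM, 2.94, 0.32 and 0.45 FPKM at 100 mM, and 2.00, 0.46 and 0.61 FPKM at 400 mM. In both, replicate 1 of either salt level was several times above the other replicates of its level. Rank 8, the most abundant of these at 100 ± 45.2 FPKM without salt, had 20.5, 2.78 and 26.3 FPKM at 100 mM and 31.6, 0.36 and 5.96 FPKM at 400 mM. Its 400 mM libraries thus spanned from near the floor of the table to over 30 FPKM. Rank 9, of 1043 bases, had 4.45, 3.06 and 4.19 FPKM without salt, 0.91, 0.36 and 0.46 FPKM at 100 mM, and 0.42, 0.97 and 0.43 FPKM at 400 mM, with all of its salt libraries under 1 FPKM.

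Ranks 3, 7 and 86 had the 3 widest relative spreads at 0 mM in the list, each with 1 library well above the others. Rank 3, of 436 bases, had 60.8, 138 and 18.7 FPKM at 0 mM, 7.01, 8.47 and 14.0 FPKM at 100 mM, and 5.47, 11.0 and 5.81 FPKM at 400 mM. Rank 7, of 843 bases, had 23.6, 6.71 and 6.39 FPKM at 0 mM, 1.64, 2.14 and 1.11 FPKM at 100 mM, and 3.31, 0.85 and 1.62 FPKM at 400 mM. The coefficient of variation at 0 mM was 0.836 in rank 3, 0.806 in rank 7 and 0.817 in rank 86. Ranks 6 and 12 carry adjacent numbers in the assembly and had nearly the same course. Their log2 FPKM correlated at 0.988 over the 9 libraries, which share depth and salt level. Both were chosen for the same fall at salt, so a high correlation is partly set by the rule. Rank 6 had 68.0, 23.4 and 28.6 FPKM at 0 mM, 12.7, 2.55 and 3.06 FPKM at 100 mM, and 10.5, 3.57 and 1.98 FPKM at 400 mM. Clusters of adjacent number can be fragments or copies of 1 gene, which was not tested, so these 2 ranks may not be separate genes.

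**Figure D2:**
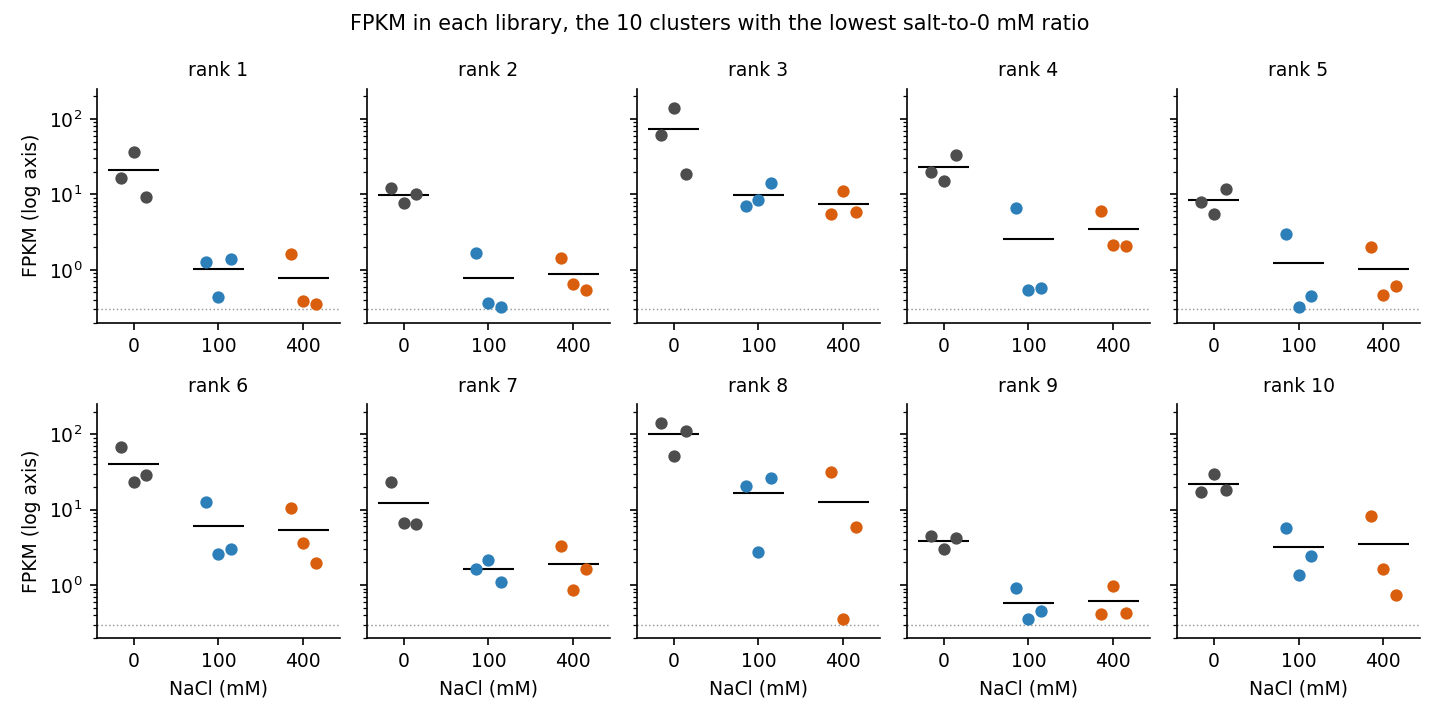
FPKM (log axis) of the 10 clusters with the lowest ratio of salt to 0 mM, each point a library and each line the mean of 3 libraries, with the table's floor of 0.3 FPKM dotted. Every salt point lies under every 0 mM point, by 5.81 times in rank 1 and by 1.33 times in rank 3.

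Abundant clusters were part of the list too. At 0 mM 15 of the 150 exceeded 50 FPKM, 43 lay between 10 and 50 FPKM, 44 between 5 and 10 FPKM and 48 under 5 FPKM. The median log2 ratio of salt to 0 mM in these classes was -2.05, -1.96, -2.02 and -1.85. The highest level without salt was that of rank 119, of 251 bases, at 714, 338 and 391 FPKM at 0 mM, 261, 81.1 and 35.6 FPKM at 100 mM, and 258, 97.5 and 114 FPKM at 400 mM. It is also the shortest cluster of the list. Its counts and FPKM imply a length of only 22.8 bases, so that 976 counts over all libraries gave this level.

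This scaling touches every short cluster. In the deposited values the length implied by count and FPKM was shorter than the listed length, by a median of 243 bases in the 150 clusters. For the 18 clusters under 500 bases the listed length was 1.97 to 11 times the implied one, and for clusters over 1000 bases at most 1.32 times. The order of levels between short and long clusters therefore rests on that scaling, while the median log2 ratio to 0 mM was -2.02 at 100 mM and -1.94 at 400 mM when counts were scaled to library total alone.

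Ranks 97, 16, 41 and 49 followed rank 119 in mean level at 0 mM, in that order. Rank 97, of 522 bases, had 423, 202 and 264 FPKM at 0 mM, 131, 56.3 and 41.9 FPKM at 100 mM, and 134, 80.5 and 48.9 FPKM at 400 mM. Rank 41, of 264 bases, had 128, 180 and 218 FPKM at 0 mM, 81.8, 15.2 and 13.2 FPKM at 100 mM, and 62.1, 43.6 and 22.4 FPKM at 400 mM, on 450 counts in all. In both, replicate 1 was the highest library at either salt level.

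By reads, the largest members were longer. Rank 120, of 3083 bases, had the most counts of the list, 26862 over the 9 libraries. It had 62.9, 154 and 86.6 FPKM at 0 mM, 28.8, 44.6 and 21.4 FPKM at 100 mM, and 35.8, 23.4 and 25.6 FPKM at 400 mM. Rank 73, of 2141 bases, had 93.3, 160 and 109 FPKM at 0 mM, 15.3, 47.4 and 30.7 FPKM at 100 mM, and 25.8, 44.8 and 24.1 FPKM at 400 mM. In both, replicate 2 was the highest library at 0 mM and at 100 mM, unlike most of the list. Rank 16, with 14119 counts, was spread widely, at 121, 180 and 390 FPKM at 0 mM, 72.7, 16.1 and 21.3 FPKM at 100 mM, and 48.6, 74.0 and 14.2 FPKM at 400 mM.

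Some clusters were more even at 100 mM than most of the list, such as ranks 49, 15 and 40. At 0 mM rank 15 was not, with a coefficient of variation of 0.322 against a list median of 0.325. Rank 49, of 661 bases, had 168, 141 and 155 FPKM at 0 mM, 32.7, 32.0 and 33.5 FPKM at 100 mM, and 56.8, 31.0 and 31.7 FPKM at 400 mM. The 100 mM libraries agreed to within a coefficient of variation of 0.0236, the smallest in the list, and only replicate 1 at 400 mM stood apart from the other salt libraries. Rank 15, of 2186 bases, had 35.4, 22.1 and 20.0 FPKM at 0 mM, 5.48, 4.15 and 4.0 FPKM at 100 mM, and 4.29, 6.64 and 3.06 FPKM at 400 mM. Rank 40, of 3086 bases, had 14.8, 13.0 and 11.7 FPKM at 0 mM, 3.45, 2.25 and 2.49 FPKM at 100 mM, and 4.11, 3.56 and 1.99 FPKM at 400 mM. In all 3 of these clusters the lowest 0 mM library was at least 2.48 times the highest salt library.

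Ranks 15, 40 and 49 were also the only members past an adjusted p of 0.05 in edgeR's quasi-likelihood test, fitted over 56832 clusters with all libraries. The test rests on the same libraries as the choice, so the counts are descriptions. Of 143 members with enough counts to be tested, 3 were called lower at 100 mM against 0 mM, where 0.0757% of all clusters tested were called lower. At an unadjusted p under 0.05 it was 123 members (6.53% of all clusters), and DESeq2 called 78 (3.1% of all clusters). At 400 mM against 0 mM 0 members were called lower (0% of all clusters), 123 members had an unadjusted p under 0.05 (4.9% of all clusters), and DESeq2 called 67 (1.84% of all clusters). Limma on log2(FPKM + 1) called 8 there (0.176% of all clusters), and on log2(FPKM + 0.1) 2 (0.0352% of all clusters). With both salt levels joined against 0 mM 3 members were called lower (0.0299% of all clusters), 141 had an unadjusted p under 0.05 (7.41% of all clusters), and DESeq2 called 111 (3.21% of all clusters). Both counts of 3 went to 0 when any 1 library of 0 mM or of 100 mM, or 400 mM replicate 2, was left out. In those fits the share of all clusters called lower also fell, to at most 0.00321% at 100 mM and 0.0032% with both joined. The counts of 3 became 5 (0.12% of all clusters) and 18 (0.217% of all clusters) without 400 mM replicate 1. Without 400 mM replicate 3 they were 4 (0.0542% of all clusters) and 0 (0% of all clusters). The count of 0 at 400 mM became 3 without 400 mM replicate 1 (0.0176% of all clusters). It stayed at 0 when any other single library was left out (0% of all clusters). Without replicate 1 of both salt levels, 15 members were called at 100 mM (0.283% of all clusters), 9 at 400 mM (0.0814% of all clusters) and 36 with both joined (0.793% of all clusters).

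Both salt levels were alike by the rule, and the direction of what was left was mixed. The mean at 400 mM was above that at 100 mM in 94 of the 150 clusters and below it in 56. In the table as a whole, 54.8% of clusters were higher at 400 mM than at 100 mM. Libraries of 400 mM and 100 mM did not overlap in 1 of the 150, against 16.6% of the table, and as the rule bounded the difference between both levels nothing is read from that. The cluster was rank 103, at 1.59, 1.62 and 1.44 FPKM at 400 mM, against 1.42, 1.04 and 0.89 FPKM at 100 mM. Of the members tested, 0 were called between 400 mM and 100 mM by edgeR's quasi-likelihood test (0% of all clusters in either direction), 0 had an unadjusted p under 0.05 (7.02% of all clusters), and DESeq2 called 0 (1.58% of all clusters). Limma called 0 with a pseudocount of 1 FPKM (0.0106% of all clusters) and 0 with one of 0.1 FPKM (0.0246% of all clusters). As the rule bounded this difference, nothing is read from that count.

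At the upper bound, rank 105 had 4.41, 6.50 and 2.48 FPKM at 400 mM, against 2.71, 1.48 and 5.30 FPKM at 100 mM. Its libraries without salt were at 21.4, 8.70 and 10.5 FPKM. At the lower bound, rank 67 had 0.88, 0.37 and 1.30 FPKM at 400 mM, against 1.11, 1.08 and 1.41 FPKM at 100 mM. Its libraries without salt were at 3.04, 6.11 and 2.80 FPKM. In both clusters the difference between the salt means was smaller than the SD at 400 mM, which was 2.01 FPKM in rank 105 and 0.466 FPKM in rank 67. Rank 130, also near the upper bound, had 20.6, 54.0 and 13.2 FPKM at 400 mM, against 18.3, 14.3 and 30.3 FPKM at 100 mM, with 83.3, 70.8 and 96.8 FPKM without salt. At 400 mM its replicate 2 alone lay above all of its 100 mM libraries.

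Just inside the cutoff, rank 150 had 3.12, 1.07 and 1.41 FPKM at 0 mM, 1.0, 0.35 and 0.62 FPKM at 100 mM, and 0.40, 0.62 and 0.47 FPKM at 400 mM. Its ranking value was -1.69, like that of the next candidate outside, which had 7.16, 8.20 and 5.62 FPKM at 0 mM, 2.55, 1.68 and 3.07 FPKM at 100 mM, and 1.96, 2.79 and 0.93 FPKM at 400 mM. The separation of the groups differed more than the ranking value did. In rank 150 the lowest 0 mM library was 1.07 times the highest salt library, and in that next candidate 1.83 times. The rule required separated groups and ranked by a related ratio, so the shares that follow are descriptions. In the whole list this ratio had a median of 1.56 and was at least 2 in 35 clusters (23.3%). It was at least 2 in 1.46% of the candidates and in 0.187% of the table. The ratio was under 1.1 in 6 clusters (4.0%, against 45.6% of the candidates), with the smallest value of 1.04 in rank 143. That cluster had 23.0, 65.8 and 35.9 FPKM at 0 mM, 22.1, 5.62 and 6.08 FPKM at 100 mM, and 20.3, 14.5 and 7.53 FPKM at 400 mM.

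Libraries of 1 level differed in a like way across many of the 150 clusters, in an order that the rule did not set. Replicate 1 was the highest 100 mM library in 94 clusters (62.7%, against 43.9% of the table) and the highest 400 mM library in 82 (54.7%, against 39.4% of the table). It was the highest at both levels in 57 clusters (38%, against 23.4% of the table). At 400 mM, replicate 3 was the lowest library in 100 clusters (66.7%, against 38.2% of the table). Without salt, replicate 1 was the highest library in 86 clusters (57.3%, against 38.8% of the table). The order was not particular to the list. Among the 2600 candidates, replicate 1 was highest in 62.1% at 100 mM, 56.5% at 400 mM and 38.6% at both. There 400 mM replicate 3 was lowest in 58.7%, and 0 mM replicate 1 was highest in 48.3%.

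By size, the median cluster had a log2 value of -1.74, -2.53 and -2.29 at 100 mM in replicates 1 to 3, relative to its mean at 0 mM, and of -1.67, -1.88 and -2.66 at 400 mM. The 0 mM libraries were at 0.22, -0.26 and -0.14. The least reduced salt library was therefore replicate 1 at both levels, and the most reduced was replicate 3 at 400 mM. The table's medians at salt lay between -0.31 and -0.12 in the same libraries, with replicate 1 again closest to 0 mM at both levels. The 150 clusters chosen by the mirrored rule, as raised alike at both levels, were likewise least changed in replicate 1, with a median log2 value of 2.28 at 100 mM against 2.92 and 2.84 in replicates 2 and 3, and of 1.47 at 400 mM against 2.81 and 2.96. With replicate 1 of both salt levels left out, the median log2 ratio of the lowered clusters was -2.34 at 100 mM and -2.17 at 400 mM. The labels give no reason for this order, and its part in the results was not tested.

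**Figure D3:**
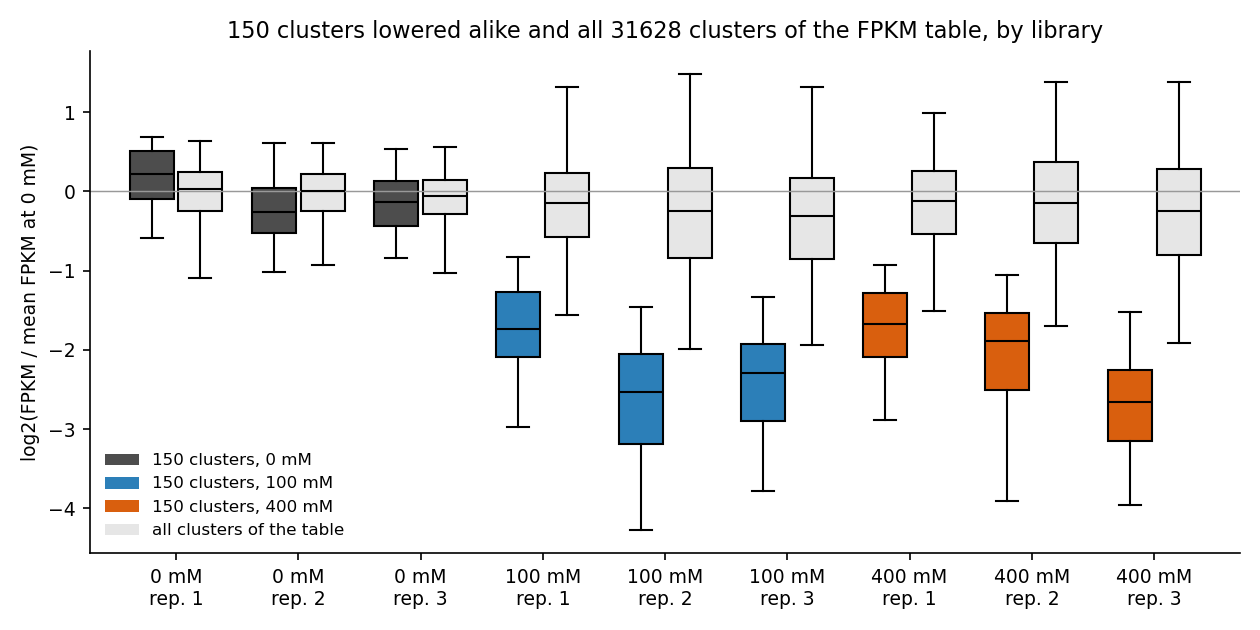
Log2 of FPKM over the cluster's mean at 0 mM in each library, for the 150 clusters (coloured) and for all 31628 clusters of the table (grey), with medians, quartile boxes and whiskers from the 5th to the 95th percentile. The coloured medians lie between -1.67 and -2.66 in the salt libraries, with replicate 1 the highest at both levels, while the grey medians of the salt libraries lie between -0.31 and -0.12.

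The spread within a level was larger than is usual in the table. The median coefficient of variation was 0.325 without salt, 0.475 within 100 mM and 0.484 within 400 mM, against 0.248, 0.262 and 0.276 over the table. For the 150 raised clusters it was 0.437, 0.351 and 0.533, so a wide spread was not particular to the lowered clusters. The lowered clusters also had fewer counts than the table, which the rule partly sets at salt. The part of low counts in the spread was not tested. Steady levels without salt could go with a wide spread at salt. Rank 92, of 1213 bases, had 7.67, 8.01 and 8.28 FPKM at 0 mM, the smallest coefficient of variation there (0.0383), 1.27, 1.76 and 2.54 FPKM at 100 mM, and 5.50, 1.2 and 0.75 FPKM at 400 mM. Rank 109, of 666 bases, had 7.30, 6.55 and 6.82 FPKM at 0 mM, 4.13, 0.73 and 1.85 FPKM at 100 mM, and 2.40, 2.09 and 0.70 FPKM at 400 mM. Replicate 1 was the highest 400 mM library in both, and the highest 100 mM library in rank 109.

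The rule was also applied 9 times, each time without 1 library, and the 150 clusters so chosen were read in the library left out. That library had no part in the ranking, but it is set against libraries that did. A left-out salt library is compared with 0 mM values chosen as high, a left-out 0 mM library with salt values chosen as low, and the table's floor of 0.3 FPKM holds in the left-out library too. The readings are therefore partly fixed by the choice and are given as descriptions. The shares over the table are of clusters not chosen in this way, and are not what lists chosen in this way would show with no difference in the left-out library. The left-out salt library lay below every 0 mM library in 107, 143 and 144 of 150 clusters for 100 mM replicates 1 to 3, and in 125, 131 and 140 for 400 mM replicates 1 to 3. Over the table that held for 36.2%, 43.1% and 45.5% of clusters at 100 mM and 33.6%, 37.6% and 42.7% at 400 mM. A left-out 0 mM library lay above every salt library in 123, 104 and 125 of 150 clusters for replicates 1 to 3, against 31.4%, 24.8% and 25.7% of the table. These are counts over clusters of 1 library each, and clusters that share reads or a gene are not independent, so no test was made.

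The median log2 ratio varied between left-out libraries. For 100 mM replicates 1 to 3 the median log2 ratio to 0 mM was -1.25, -2.39 and -2.22 in the left-out library, beside -1.97, -1.93 and -1.93 in the salt libraries used for the choice. For 400 mM replicates 1 to 3 it was -1.21, -1.60 and -2.28, beside -2.15, -1.98 and -1.83. These ratios divide by the 0 mM mean that chose the clusters, and they were nearest to 0 for replicate 1 of either level. With a 0 mM library left out, the median log2 ratio of salt to that library was -1.78, -1.36 and -1.54 for replicates 1 to 3, beside -1.92, -2.13 and -2.06 in the libraries used. The table's medians in these readings lay between -0.31 and -0.07. Of the 9 lists, the one without 100 mM replicate 1 shared the fewest clusters with the 150, at 71, and the one without 0 mM replicate 3 the most, at 115.

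**Figure D4:**
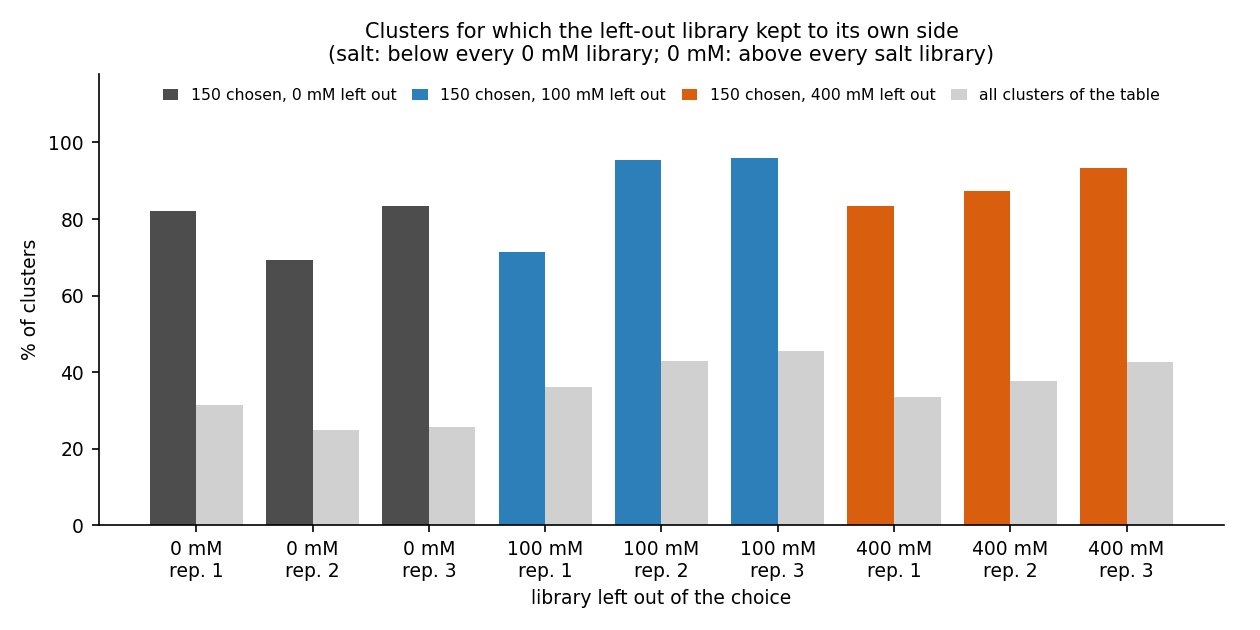
Percentage of clusters whose value in the left-out library lay below every 0 mM library (for a salt library) or above every salt library (for a 0 mM library), for the 150 clusters chosen without that library (coloured) and for all clusters of the table (grey). The coloured bars, partly fixed by the choice on the other libraries, run from 69.3% to 96.0%, and the grey bars from 24.8% to 45.5%.

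The 150 clusters were shorter than the table, a property that the rule did not use directly. Their median length was 1083 bases, with quartiles at 707 and 1733 bases, against a median of 1476 over the table and 1403 over the 2600 candidates. Under 1000 bases lay 63 clusters (42.0%, against 30.3% of the table), and over 2000 bases 24 (16.0%, against 31.6% of the table). The longest was rank 128, of 5929 bases, at 11.8, 6.77 and 7.68 FPKM at 0 mM, 3.71, 2.34 and 1.40 FPKM at 100 mM, and 2.26, 2.46 and 3.51 FPKM at 400 mM. The 150 raised clusters had a similar median length of 1116 bases. Among clusters of 5 to 10 FPKM at 0 mM the median length was 861 bases in the list and 1572 in the table. Under 5 FPKM it was 1485 and 1604 bases, from 10 to 50 FPKM 1070 and 1445, and above 50 FPKM 1013 and 1052. The difference was thus small in the lowest and highest classes. The 150 clusters also had fewer counts, with a median of 61.4 per library against 145 over the table. The salt libraries, where the rule chose low values, enter that median, and at 0 mM it was 115 against 136. The part of low counts in these lengths was not tested.

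**Figure D5:**
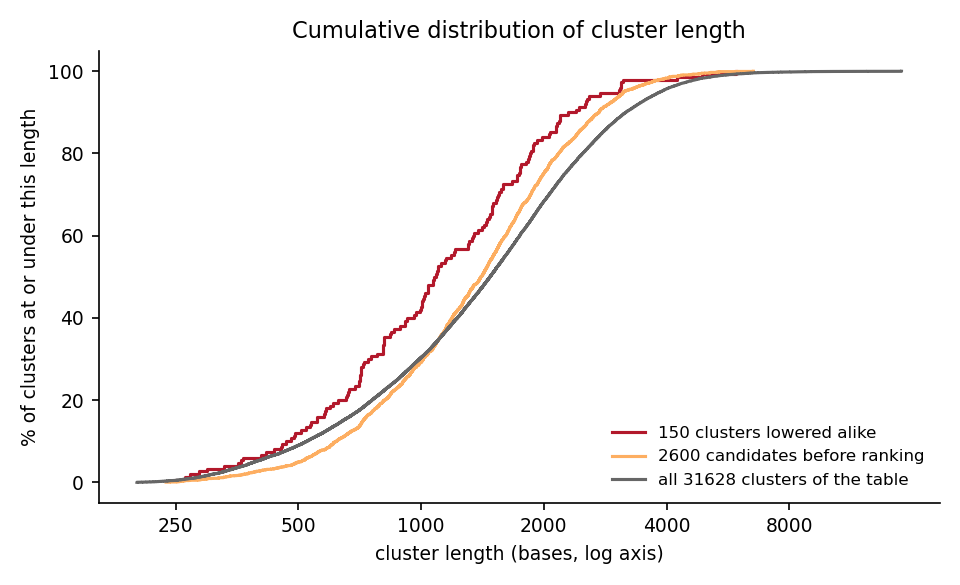
Cumulative percentage of clusters by length in bases (log axis) for the 150 lowered clusters, the 2600 candidates and all 31628 clusters of the table. The line of the 150 clusters runs above the others over most of the range, and 42.0% of them are under 1000 bases against 30.3% of the table.

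Counts behind the list were modest. The median cluster had a mean count of 115 without salt, 30.7 in the 100 mM libraries and 35.2 in the 400 mM libraries. Over the table these medians were 136, 132 and 154. The rule chose low salt values, so low counts at salt are partly set by it. In 57 clusters (38%, against 13.3% of the table) at least 1 salt library had under 10 counts, and in 13 all 9 libraries together had under 100. The least covered was rank 29, of 271 bases, with 19 counts in all. The 7 members that were not tested had between 19 and 77 counts. These low counts limit the precision of many of the ratios.

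Estimated counts were more often whole in the list than in the table, as a count is when no read is divided between clusters. In 50 of the 150 (33.3%, against 20.9% of the table) the estimated count was a whole number in all 9 libraries, to the 2 decimals deposited. Scarce clusters are more often whole. Within classes of mean count, the share was 50.0% against 45.9% of the table under 30 counts, 24.2% against 18.7% from 30 to 100, 32.1% against 15.8% from 100 to 300, and 31.8% against 14.0% above. The other 100 members had a count that was not whole in at least 1 library, so that reads may be shared with other clusters and their values are less certain.

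By assembly name, 147 of the 150 (98.0%) belonged to the 1 component that also holds 99.3% of the table. The other 3 were ranks 19, 21 and 56, from 3 separate components. Rank 19, of 416 bases, had 7.69, 5.35 and 4.22 FPKM at 0 mM, 1.31, 0.61 and 1.30 FPKM at 100 mM, and 1.27, 0.82 and 1.0 FPKM at 400 mM, the third widest separation in the list, on 76 counts. Rank 56, of 740 bases, was among the steadiest without salt, at 3.77, 3.47 and 3.96 FPKM, with 1.71, 0.60 and 0.83 FPKM at 100 mM and 1.01, 0.94 and 0.35 FPKM at 400 mM. Within the large component only 3 pairs of neighbouring members lay within 3 numbers of each other, so most members were not adjacent in the naming.

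The table's floor shaped the list. The table holds only clusters over 0.3 FPKM in all 9 libraries, and 95 of the 150 (63.3%, against 29.0% of the table) had at least 1 library under 1 FPKM. Clusters that were lost altogether at salt are therefore not in it. When the same rule was applied to all clusters with a mean of at least 0.3 FPKM, it gave 3892 candidates, with clusters at 0 in all libraries of a salt level left unranked, and 148 of the 150 with the lowest ratio were outside the table. Only 2 members remained. The 150 clusters thus have the lowest ratios among candidates above the floor in every library, and not among all clusters measured.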

How the data were processed

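Leaf RNA of Nitraria sibirica was measured in 9 libraries, 3 each at 0 mM, 100 mM and 400 mM NaCl, grouped by their labels. The deposited read counts are estimated counts per cluster, as many are not whole, and the deposited FPKM values were scaled by the authors, per the file headers. Cluster lengths in bases were deposited in the series table, whose FPKM values were identical to those of the library tables. The submitters' processing notes name TopHat2 2.0.9 and Bowtie2 2.0.6 without a role. The assembler, counter and strand setting: not given in the sources used here.

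Members, comparisons and alternatives were chosen with earlier results of these data known. Members were found by the rule in the report. Identifiers are printed for ranks 1 and 2 only, and further ranks were described by rules set from their ranking, level, length, spread, separation, ratio between salt levels and counts. Ranks 12, 15, 21, 29, 40 and 103 were singled out after their values were seen. Ratios are of mean FPKM with no pseudocount. Counts were rounded and fitted with edgeR 4.0.16 (quasi-likelihood, TMM, filterByExpr, 3 groups, 6 residual degrees of freedom) in R 4.3.3, with Benjamini-Hochberg adjustment over 56832 clusters, after a test on simulated data. The simulated libraries were less spread than the real ones, whose common biological coefficient of variation was 0.758. The power of the fit at that spread was not tested. DESeq2 1.42.0 and limma 3.58.1 were alternatives. No pair of libraries held identical counts.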

Additional observations from a re-analysis of the deposited data

How the results depend on the processing

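Members called lower numbered 3 at 100 mM, 0 at 400 mM and 3 with both levels joined, always against 0 mM. These counts depended on the tool and on the clusters tested. They were 78, 67 and 111 (3.1%, 1.84% and 3.21% of all clusters tested, as in the following brackets) when DESeq2 was the tool. With limma they were 45, 8 and 83 (1.76%, 0.176% and 2.28%) after adding 1 to each FPKM before taking log2, but 19, 2 and 36 (0.825%, 0.0352% and 0.838%) after adding 0.1. With only the clusters of the series table tested they were 48, 0 and 92 (1.38%, 0% and 1.79%), where fewer clusters enter the adjustment. Without replicate 1 of both salt levels they were 15, 9 and 36 (0.283%, 0.0814% and 0.793%). With the replicate number as a block (replicate block) they were 13, 1 and 17 (0.0915%, 0.00176% and 0.102%). Same-numbered libraries correlated in their deviations from the group means at -0.007 to 0.143, and libraries of different number at -0.089 to 0.046. The highest value was between replicate 1 of 100 mM and replicate 1 of 400 mM (0.143). In contrast, 0 mM replicate 3 correlated more with 100 mM replicate 1 (0.044) than with its own number. Whether the numbers mark a pairing was not tested. Leaving out 1 library at a time gave 0 to 5, 0 to 3 and 0 to 18 (0% to 0.12%, 0% to 0.0176% and 0% to 0.217%). The counts stayed at 3, 0 and 3 in edgeR with DESeq2 size factors (0.0792%, 0% and 0.0106%). The same held with library size as the only scaling (0.0581%, 0% and 0.0352%). No filter on low counts left them there too (0.0206%, 0% and 0.00823%). Apart from the splits named, the cause was not tested. Between 400 mM and 100 mM 0 members were called under all 18 alternatives, where at most 1.58% of all clusters were called (with DESeq2). As the rule bounded this difference, nothing is read from that count.

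The median log2 ratio ranged from -2.34 to -1.62 at 100 mM and from -2.17 to -1.51 at 400 mM over 12 alternatives each, weakest with a pseudocount of 1 FPKM. With TMM scaling it was -1.77 at both levels.

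Of the 150 clusters, 134 were chosen again with TMM-scaled counts per length, which left 1230 candidates against 2600 with FPKM, and 150 with no cap. With a bound of 0.25 on the ratio of both salt levels 73 were, with a bound of 1 94 were, and by the separation of the groups 69 were. Without 1 library between 71 and 115 were. The share in the large component became 66.0% when clusters outside the table could enter, and lay between 96.7% and 98.7% without 1 library. The share of that wider set of clusters in the large component is not given here, so nothing is read from the 66.0%.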
